A study of Mus musculus with 93 samples.

Results

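The transcripts of 10 genes that encode the inflammasome, the pore it opens, the necroptosis machinery and the cytokine Tnf were followed in mouse liver. They are Nlrp3, Pycard, Casp1, Casp4, Il1b, Il18, Gsdmd, Ripk3, Mlkl and Tnf. They were taken from the table of read counts as the rows whose Ensembl identifier maps to these symbols, and all 10 were found among the 53465 genes listed. Livers came from 93 male mice of 7 inbred strains kept at 30°C from 6 wk of age, a temperature at which mice spend little energy on heat. From 7 wk of age they ate a control diet (CD, 10% of the energy from fat) or a Western diet (WD, 40% of the energy from fat) for 17 wk, and livers were taken at 24 wk after 4 h of fasting. C57BL/6J had 8 mice on each diet and WSB/EiJ had 6. There were 7 CD and 6 WD mice of 129S1/SvImJ, 6 CD and 7 WD mice of DBA/2J, 6 CD and 7 WD mice of PWK/PhJ, 5 CD and 6 WD mice of A/J, and 7 CD and 8 WD mice of CAST/EiJ. The labels name no engineered allele and no drug, and each mouse gave 1 library.

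An inflammasome is a protein platform that forms in the cytosol when a sensor such as NLRP3 detects damage or microbial products. The adaptor ASC, encoded by Pycard, joins the sensor to caspase-1, which cuts the precursors of interleukin-1β and interleukin-18 and also gasdermin D, whose freed end makes pores in the plasma membrane and kills the cell by pyroptosis. Caspase-11, encoded by mouse Casp4, binds bacterial lipopolysaccharide in the cytosol and cuts gasdermin D without a sensor platform. Necroptosis is another lytic death, in which the kinase RIPK3 phosphorylates MLKL and MLKL permeabilizes the membrane, and it can start at the receptor for TNF when caspase-8 is blocked. In liver these genes are studied in fatty liver disease, and much of their transcript comes from macrophages and other leukocytes, whereas hepatocytes also express some of them.

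Casp1 and Casp4 are neighbors on chromosome 9 of GRCm38. Casp1 (ENSMUSG00000025888) spans chr9:5298517-5307265 on the forward strand, Casp4 (ENSMUSG00000033538) starts 1562 bases further on at chr9:5308828-5336783, and Casp12, the next caspase gene of this cluster, follows at chr9:5345430-5373032. The other members lie apart: Nlrp3 (ENSMUSG00000032691) at chr11:59541568-59566956, Pycard (ENSMUSG00000030793) at chr7:127989708-127993867, Il1b (ENSMUSG00000027398) at chr2:129364570-129371139, Il18 (ENSMUSG00000039217) at chr9:50554827-50581840, Gsdmd (ENSMUSG00000022575) at chr15:75862327-75867408, Ripk3 (ENSMUSG00000022221) at chr14:55784995-55788865, Mlkl (ENSMUSG00000012519) at chr8:111311797-111338177, and Tnf (ENSMUSG00000024401) at chr17:35199381-35202007. All are protein-coding genes in GENCODE M21, with 3 (Pycard) to 13 (Mlkl) separate exon blocks. On the opposite strand, Gm45205 overlaps 485 bases (12.8%) of the exons of Pycard and Il1bos overlaps 25 bases (1.3%) of those of Il1b. Whether the counting used the strand is not given in the sources used here, so reads of Pycard and Gm45205 may not have been told apart. Casp1, Casp4 and Casp12 are related in sequence. The deposited counts keep reads that map to more than 1 place on a summary line apart from the genes. How far such reads concern these caspase genes was not examined.

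The 250 bases before the transcription start were read for the 4 members with the largest responses or neighboring positions, from RefSeq promoters of GRCm38.p6, in the direction of transcription. RefSeq promoter entries matched 9 of the 10 members, with Gsdmd unmatched. Capitals mark matches to the NF-kB motif, the site of the factor that switches on inflammatory genes. Casp4 (chr9:5308599-5308848, forward strand), Nlrp3 (chr11:59541319-59541568, forward strand), Casp1 (chr9:5298267-5298516, forward strand) and Tnf (chr17:35202008-35202257, reverse strand) are shown so that neighboring and responding genes can be compared.
Casp4: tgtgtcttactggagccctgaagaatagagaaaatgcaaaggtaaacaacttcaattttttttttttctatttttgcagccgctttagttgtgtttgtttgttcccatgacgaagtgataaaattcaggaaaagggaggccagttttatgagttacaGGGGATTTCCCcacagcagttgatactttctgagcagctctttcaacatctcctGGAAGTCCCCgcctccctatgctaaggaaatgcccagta
Nlrp3: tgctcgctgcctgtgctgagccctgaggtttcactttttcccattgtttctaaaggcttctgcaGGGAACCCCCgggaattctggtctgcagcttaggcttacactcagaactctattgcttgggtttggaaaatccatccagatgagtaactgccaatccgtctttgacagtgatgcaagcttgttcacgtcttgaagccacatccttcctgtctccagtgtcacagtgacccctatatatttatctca
Casp1: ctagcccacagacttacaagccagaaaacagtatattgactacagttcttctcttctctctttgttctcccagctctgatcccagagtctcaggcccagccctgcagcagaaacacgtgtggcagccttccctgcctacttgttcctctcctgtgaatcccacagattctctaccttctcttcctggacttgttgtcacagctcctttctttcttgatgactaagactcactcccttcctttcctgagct
Tnf: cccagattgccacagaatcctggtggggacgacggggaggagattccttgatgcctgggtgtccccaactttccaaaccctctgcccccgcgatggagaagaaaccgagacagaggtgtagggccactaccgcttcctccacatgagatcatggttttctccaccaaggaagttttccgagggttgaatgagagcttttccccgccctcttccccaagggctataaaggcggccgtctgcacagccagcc

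On both strands the NF-kB motif matched 2 of the 9 members, Casp4 and Nlrp3, against 7.25% of all 32851 RefSeq windows of this length. In Casp4, matches on both strands overlap from 93 to 83 bases before the start, and another lies from 39 to 30 bases before it on the reverse strand. The other Casp4 entry, with a slightly different start, holds the same stretches. In Nlrp3 a single stretch, 186 to 177 bases before the start of the entry shown, reads as a match on both strands, and the other Nlrp3 entry held none. The C/EBP motif TTGCNNAA (9.56% of windows) and the PU.1 motif GAGGAAGT (2.44%) were both found in Pycard and in no other member. Neither the IRF motif GAAANNGAAA (2.98% of windows), the AP-1 motif TGANTCA (6.75%) nor the GAS motif TTCNNNGAA (7.02%) was found in any of these windows. These are matches of letters in a short window and say nothing of binding.

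Between 40020424 and 49894856 reads per mouse fell on genes (median 46618609). Every strain was mapped to the C57BL/6J genome, and the median share of reads that did not map ran from 2.20% in A/J and 2.39% in C57BL/6J to 12.5% in CAST/EiJ. In PWK/PhJ this share was 2.22% to 4.23% on CD and 5.48% to 8.73% on WD, and the diets overlapped in every other strain. Its part in differences between strains or diets was not tested. Hepatocyte markers summed to 79306 CPM or more in every mouse, where CPM is the read count scaled to the library's reads on genes after TMM normalization. No marker of the 10 cell type lists was at 0 in all mice, but Ly6g, which defines neutrophils, had a median of 0 reads in 8 of the 14 groups. In 3 mice, 2 or more members lay far from the rest of their group, and the values without them are given for the strains they belong to. These mice were replicate 3 of A/J on WD (Casp1, Casp4, Il1b, Ripk3 and Tnf high), replicate 2 of C57BL/6J on CD (Pycard high, Gsdmd low) and replicate 4 of WSB/EiJ on WD (Casp4 and Mlkl high).

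Levels of the members per kb of exon differed widely. Gsdmd was the highest, with a mean over the 14 groups of 12.4 CPM per kb, and Il18 followed with 10.9. Mlkl (2.41), Il1b (1.97) and Casp1 (1.91) formed a middle range, Casp4 (0.710) and Ripk3 (0.643) lay lower, and Nlrp3 (0.281), Tnf (0.243) and Pycard (0.224) were lowest. Their order was identical with the length of the longest transcript in place of the union of exons. The values were not, with Casp4 at 1.39 and Ripk3 at 0.751 CPM per kb, and 3 of the 10 levels moved beyond the spread between mice. In raw reads, a mouse had between 378 and 2038 reads for Gsdmd but between 0 and 135 for Tnf, with a median of 10.0, so Tnf carries the largest counting error. Pycard had only 4 to 13 reads per mouse in WSB/EiJ.

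**Figure D1:**
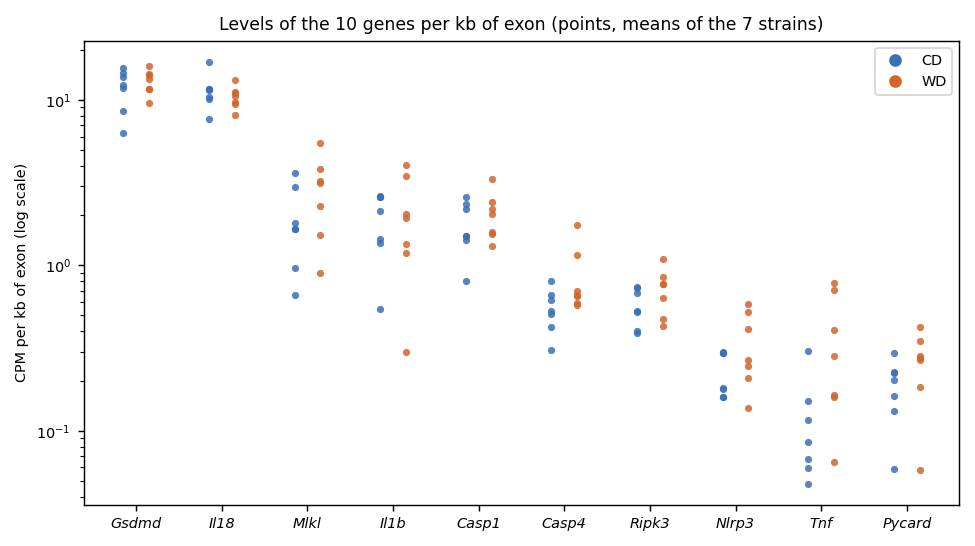
Mean level of each of the 10 genes in the 7 strains on CD (blue) and WD (orange), in CPM per kb of exon on a log axis, ordered by the mean over all 14 groups. Gsdmd and Il18 lie above the other 8 genes in every strain and diet, and Pycard has its lowest points, 0.0584 and 0.0578 CPM per kb, in WSB/EiJ.

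WD raised most of these genes in PWK/PhJ, C57BL/6J and 129S1/SvImJ and few of them in the other strains. Adjusted over 19110 genes within a strain, with a threshold of 0.05, limma called 7 of the 10 members higher on WD in C57BL/6J, where 14.3% of the genes tested were called higher. The number was 6 in 129S1/SvImJ (14.5% of all genes) and 7 in PWK/PhJ (15.1%). It was 1 in DBA/2J (10.2%), 1 in A/J (4.39%), 0 in WSB/EiJ (4.97%) and 1 in CAST/EiJ (9.77%). Il18 was the only member that fell, in C57BL/6J (11.9% of all genes downregulated), 129S1/SvImJ (13.6%) and PWK/PhJ (14.5%), and no member was called lower in DBA/2J (7.77%), A/J (4.64%), WSB/EiJ (3.97%) or CAST/EiJ (9.73%). Among the WSB/EiJ values, 3 had an unadjusted p below 0.05 (Il18, Mlkl and Tnf), edgeR called 1 member and DESeq2 called 2. The median log2 change of the 10 members was 0.54 in C57BL/6J, 0.76 in 129S1/SvImJ and 0.70 in PWK/PhJ, and between -0.067 and 0.21 in the other 4 strains. The median of all genes was between -0.0106 and 0.0169 over the 7 strains. Without the 3 mice that lay far from their group, no count changed except in 129S1/SvImJ, where 7 members were then upregulated.

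**Figure D2:**
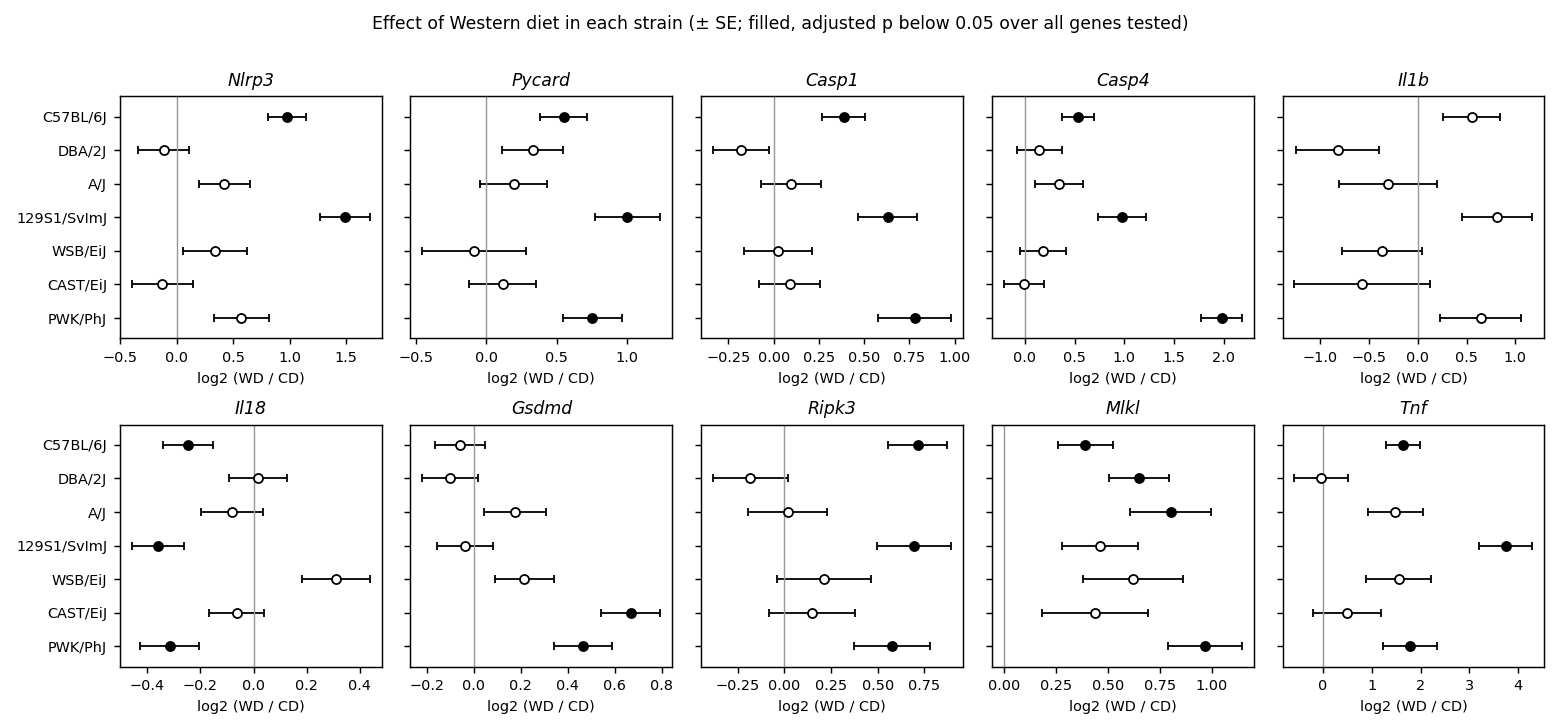
Log2 ratio of WD to CD for each gene (panels) in each strain (rows), with the standard error as bars and filled points where the adjusted p was below 0.05. Filled points gather in the rows of PWK/PhJ, C57BL/6J and 129S1/SvImJ, Il18 points to the left in these strains, and the scale differs between panels because Tnf reaches 3.74.

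In bulk liver, fewer cells of a type and less RNA per cell cannot be told apart. Macrophage markers rose most often in the 3 strains where most members rose, whereas lymphocyte markers did not do so in all of them. Of all genes tested, 4.39% to 15.1% were called higher and 3.97% to 14.5% lower over the strains. Of 10 macrophage markers, 9 of the C57BL/6J values, 10 of those in 129S1/SvImJ and 10 of those in PWK/PhJ were called higher on WD, against 0 in DBA/2J, 0 in A/J, 2 in WSB/EiJ and 2 in CAST/EiJ. Their summed level went from 248 to 722 CPM on CD to 536 to 950.4 CPM on WD in C57BL/6J. In 129S1/SvImJ it went from 148 to 282 CPM to 371 to 542 CPM, and in PWK/PhJ from 160.1 to 355 CPM to 502 to 694 CPM, with no overlap between diets in either strain. The groups overlapped in DBA/2J, with 320.2 to 543 CPM on CD and 311 to 538 CPM on WD. Of 9 markers of recruited macrophages, 8 rose in C57BL/6J, 8 in 129S1/SvImJ and 7 in PWK/PhJ, and 0 in DBA/2J, 2 in A/J, 4 in WSB/EiJ and 1 in CAST/EiJ. The remaining marker fell in C57BL/6J. Of 10 neutrophil markers, 7 rose in 129S1/SvImJ, 6 in PWK/PhJ, 2 each in DBA/2J and C57BL/6J, and 1 in WSB/EiJ. Their summed level was low. It went from 3.34 to 4.72 CPM on CD to 9.59 to 17.7 CPM on WD in 129S1/SvImJ, without overlap. In PWK/PhJ it went from 3.38 to 6.14 CPM to 7.55 to 13.0 CPM, also without overlap, and the diets overlapped in every other strain. Kupffer cell markers rose in part, with 2 of 8 in C57BL/6J, 3 in 129S1/SvImJ and 1 in PWK/PhJ. Of 12 T and NK cell markers, 9 rose in 129S1/SvImJ and at most 1 in any other strain, and 2 fell in PWK/PhJ. Of 10 stellate cell markers, 6 rose in PWK/PhJ, 4 in C57BL/6J, 3 in 129S1/SvImJ and 2 in A/J. Of 7 cholangiocyte markers, 4 rose in PWK/PhJ and 1 in CAST/EiJ, and 1 fell in each of C57BL/6J, DBA/2J and A/J. B cell markers had at most 1 of 8 higher in any strain, and 2 were lower in C57BL/6J. Of 9 endothelial markers, at most 2 rose in any strain. In C57BL/6J 4 of them fell and 2 rose, in DBA/2J 4 fell and 0 rose, and elsewhere at most 1 fell. Some hepatocyte markers fell in every strain, from 3 of 12 in WSB/EiJ and CAST/EiJ to 9 in 129S1/SvImJ. The part of these cell markers in the members' changes was not tested.

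Nlrp3, the sensor, rose in C57BL/6J and 129S1/SvImJ. In C57BL/6J the lowest, median and highest mouse had 0.963, 1.09 and 1.61 CPM on CD and 1.50, 2.41 and 2.67 CPM on WD, so that 7 of 8 WD mice lay above every CD mouse. The log2 change was 0.98 ± 0.17 (adjusted p = 4.94e-06). In 129S1/SvImJ the values were 0.546, 0.714 and 0.950 CPM on CD and 1.48, 1.93 and 3.10 CPM on WD, without overlap. There the log2 change was 1.49 ± 0.22 (adjusted p = 1.25e-07), and it was 1.36 and 1.58 in the separate cohorts of this strain. PWK/PhJ had 0.211, 0.813 and 0.946 CPM on CD and 0.751, 1.03 and 1.20 CPM on WD, a log2 difference of 0.57 ± 0.25 (adjusted p = 0.0694) that passed the threshold with cohort as a covariate and with at least 10 reads required in every mouse. In DBA/2J the difference was -0.12 ± 0.22 and in CAST/EiJ -0.13 ± 0.27, neither called. For the genes that follow, the 3 values given for a group are again its lowest, median and highest mouse.

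Pycard, the adaptor, rose in the same strains and in PWK/PhJ. 129S1/SvImJ went from 0.383, 0.526 and 0.632 CPM to 0.766, 0.967 and 1.33 CPM, without overlap, a log2 change of 1.00 ± 0.23 (adjusted p = 0.000574). In PWK/PhJ it went from 0.634, 0.751 and 0.960 CPM to 0.708, 1.41 and 1.80 CPM, with 6 of 7 WD mice above every CD mouse, a change of 0.75 ± 0.21 (adjusted p = 0.00333). C57BL/6J had 0.742, 0.941 and 2.23 CPM on CD and 1.05, 1.48 and 2.29 CPM on WD, a change of 0.55 ± 0.17 (adjusted p = 0.00863). The highest CD value there belongs to the mouse that lay apart, and without it the change was 0.72 (adjusted p = 0.000403). With a separate fit for C57BL/6J the call was lost (adjusted p = 0.0989). In the other 4 strains the log2 difference was between -0.083 ± 0.37 in WSB/EiJ and 0.33 ± 0.22 in DBA/2J, none of them called.

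Casp1, the protease of the inflammasome, rose in the same 3 strains. C57BL/6J went from 2.74, 3.82 and 4.92 CPM to 4.45, 5.06 and 5.71 CPM, a log2 change of 0.39 ± 0.12 (adjusted p = 0.00963), which edgeR's quasi-likelihood test did not call (adjusted p = 0.053). 129S1/SvImJ went from 1.80, 2.08 and 2.54 CPM to 2.93, 3.31 and 3.73 CPM, without overlap, a change of 0.63 ± 0.16 (adjusted p = 0.00183). PWK/PhJ went from 0.486, 1.35 and 1.73 CPM to 1.37, 1.82 and 3.07 CPM, a change of 0.78 ± 0.20 (adjusted p = 0.00158), and all 7 WD mice lay above the CD median. PWK/PhJ nevertheless kept the lowest mean Casp1 of all strains on both diets. On WD, limma did not call its difference from WSB/EiJ (0.26 ± 0.18, adjusted p = 0.225) or from CAST/EiJ (0.32 ± 0.17, adjusted p = 0.100). In DBA/2J 1 of 7 WD mice lay above the CD median and the difference was -0.18 ± 0.15 (adjusted p = 0.473).

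Casp4, the gene of caspase-11, changed most in PWK/PhJ. Its lowest, median and highest mouse had 1.09, 1.73 and 1.97 CPM on CD and 3.32, 6.28 and 10.6 CPM on WD. All 7 WD mice lay above every CD mouse, the means differed 4.10-fold, and the log2 change was 1.98 ± 0.20 (adjusted p = 8.17e-13), with 2.07 and 1.84 in the separate cohorts. 129S1/SvImJ went from 0.872, 0.997 and 1.58 CPM to 1.93, 2.13 and 2.57 CPM, also without overlap, a change of 0.98 ± 0.24 (adjusted p = 0.00123). In C57BL/6J the values were 1.81, 2.73 and 4.81 CPM and 3.33, 3.83 and 6.78 CPM, with 2 of 8 WD mice above every CD mouse, a change of 0.53 ± 0.16 (adjusted p = 0.00854) that a separate fit for this strain did not call (adjusted p = 0.0743). CAST/EiJ had 2.09, 2.40 and 3.13 CPM on CD and 2.02, 2.43 and 2.77 CPM on WD, a difference of -0.0087 ± 0.20. On CD PWK/PhJ ranked sixth of the strains for Casp4 and on WD it ranked first.

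The 3 caspase genes of the chromosome 9 cluster all rose in PWK/PhJ, and differences between their changes were not tested. Casp12, the gene after Casp4, rose from a mean of 0.769 CPM on CD to 4.68 CPM on WD, a log2 change of 2.47 ± 0.35 (adjusted p = 2.95e-08). The log2 changes of Casp4 and Casp1 in these mice were 1.98 and 0.78. In 129S1/SvImJ Casp12 rose by 0.81 ± 0.30 (adjusted p = 0.0333). Over the deviations of the 93 mice from their group means, Casp12 had the log2 level that went most closely with Casp4 among the genes searched (Pearson r = 0.69). Plac8 (r = 0.67) and Cd52 (r = 0.67) came next. Casp1 went with Casp4 less closely (r = 0.43), as did Mlkl (r = 0.43) and Ripk3 (r = 0.42), which lie on other chromosomes. The 93 deviations come from single libraries, in which the genes share depth and cell composition.

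**Figure D3:**
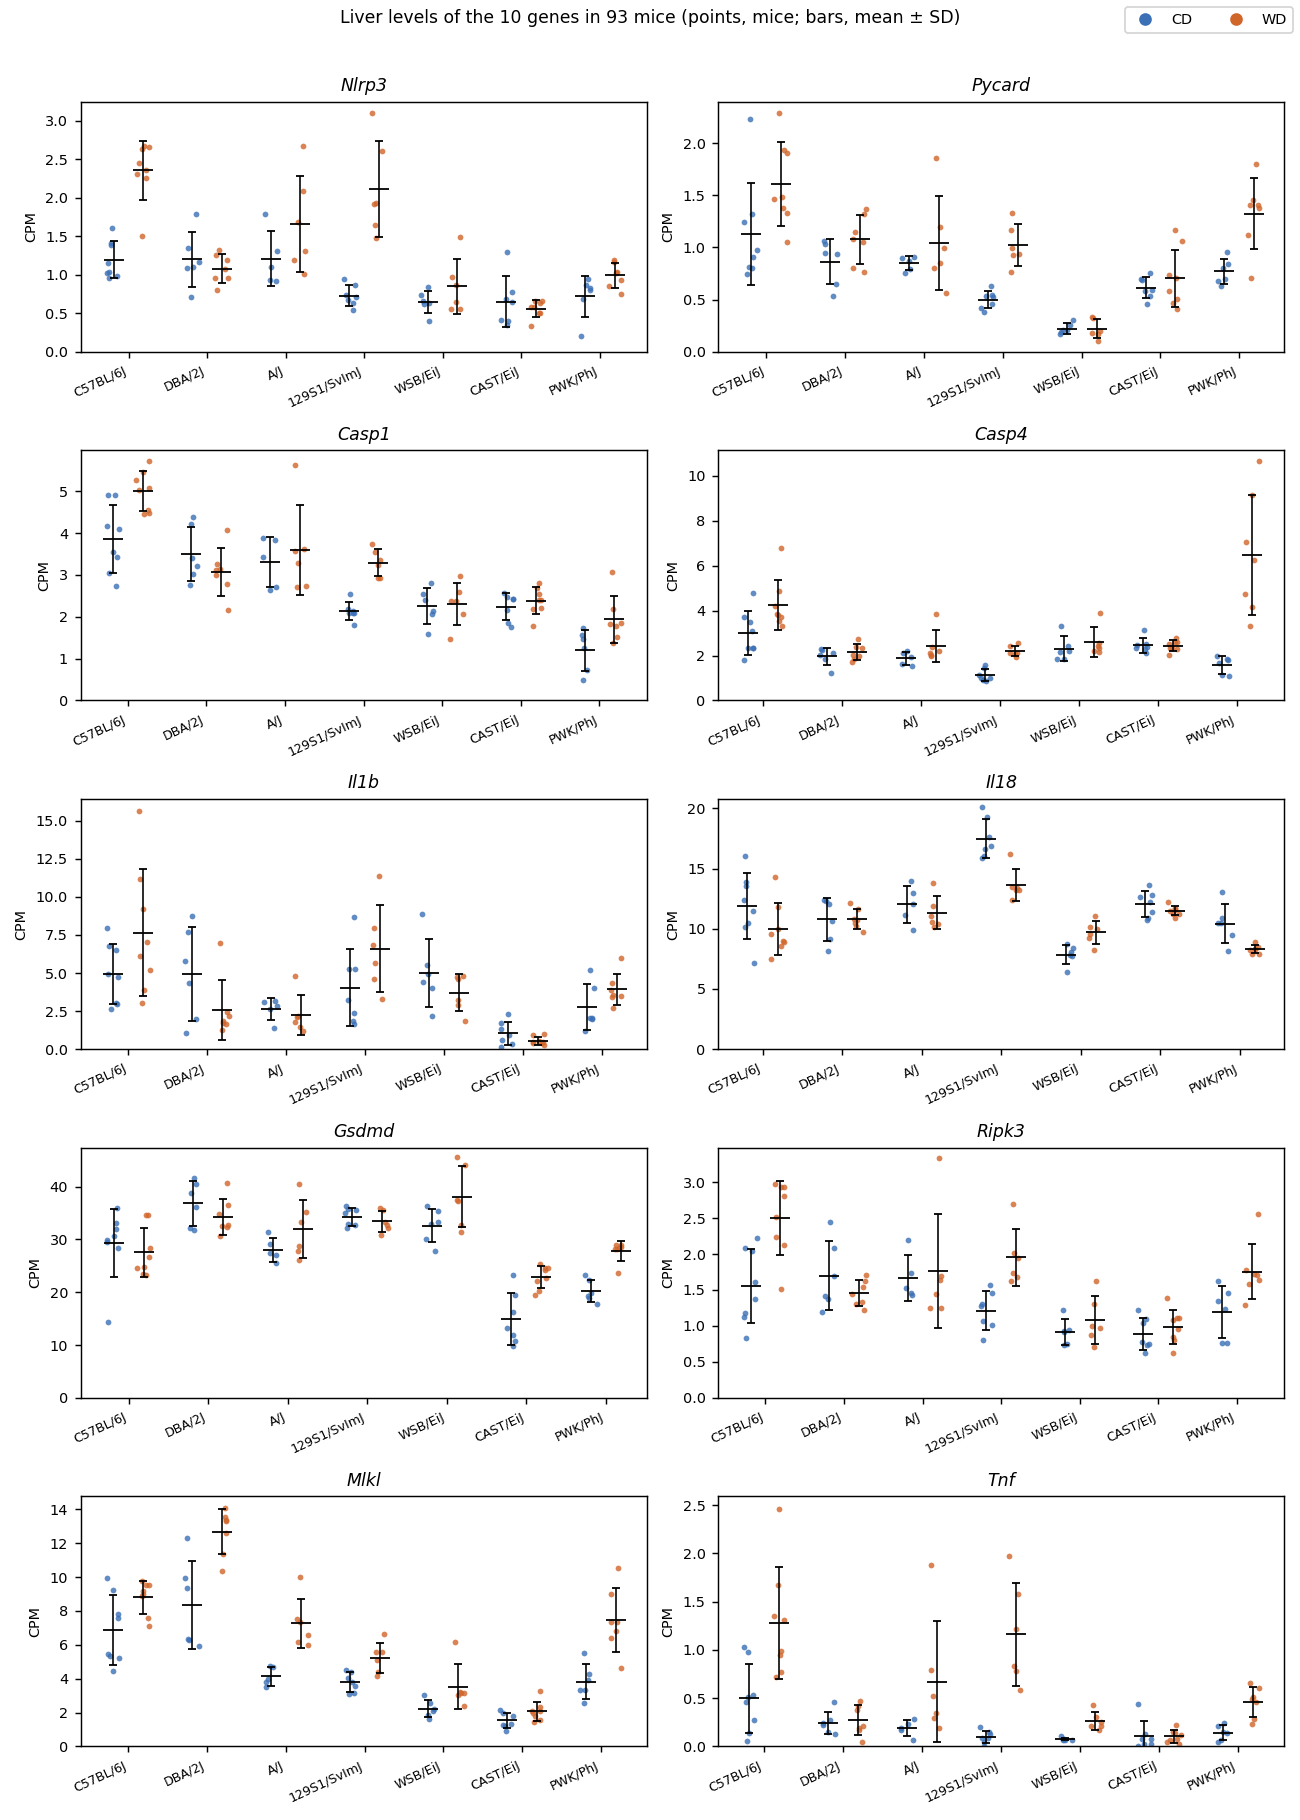
CPM of each gene in the 93 mice by strain, with CD in blue, WD in orange, and black bars for the mean and SD of each group. Casp4 in PWK/PhJ on WD spans 3.32 to 10.6 CPM above CD values of at most 1.97, and 1 mouse of A/J on WD stands above its group for Casp1, Casp4, Ripk3 and Tnf.

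Il1b, the precursor of interleukin-1β, was not called in any strain by limma, with 1 strain (129S1/SvImJ) below an unadjusted p of 0.05, and neither edgeR nor DESeq2 called it. The spread between mice was wide, for example 2.67, 4.82 and 7.96 CPM on CD and 3.04, 6.59 and 15.6 CPM on WD in C57BL/6J, a log2 difference of 0.55 ± 0.29 (adjusted p = 0.162). Mice of 129S1/SvImJ had 1.62, 3.21 and 8.66 CPM on CD and 3.29, 6.24 and 11.4 CPM on WD, with a difference of 0.82 ± 0.36 (adjusted p = 0.0789). That difference was called with sample quality weights (adjusted p = 0.0245) and without either of 2 single mice. In DBA/2J the direction was opposite, from 1.05, 5.07 and 8.72 CPM to 1.25, 1.82 and 6.99 CPM, with a difference of -0.82 ± 0.43 (adjusted p = 0.187) that was called without CD replicate 1 (adjusted p = 0.0361). CAST/EiJ had the least Il1b, with 6 to 89 reads per mouse on CD and 10 to 42 on WD. Strains did not pass the test of a difference in the diet effect in limma (adjusted p = 0.0501).

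Il18, the precursor of interleukin-18, fell where most other members rose. In 129S1/SvImJ it went from 15.9, 16.9 and 20.1 CPM on CD to 12.4, 13.3 and 16.2 CPM on WD, and 5 of 6 WD mice lay below every CD mouse. The log2 change was -0.36 ± 0.10 (adjusted p = 0.0034). In PWK/PhJ all 7 WD mice lay below the CD median, with 8.15, 10.5 and 13.0 CPM on CD and 7.91, 8.29 and 8.86 CPM on WD, a change of -0.32 ± 0.11 (adjusted p = 0.0244). That call was lost without CD replicate 3 (adjusted p = 0.102). The change in C57BL/6J, -0.25 ± 0.10 (adjusted p = 0.0443), was lost with cohort as a covariate (-0.17, adjusted p = 0.205) and without any one of 11 single mice. Without the C57BL/6J mouse that lay apart it was -0.35 (adjusted p = 0.00115). Within its cohorts it was -0.36 and -0.0097. WSB/EiJ went the other way, from 6.44, 7.94 and 8.70 CPM to 8.20, 9.77 and 11.1 CPM, with 5 of 6 WD mice above every CD mouse and a difference of 0.31 ± 0.13 (adjusted p = 0.117), which sample quality weights (adjusted p = 0.0295) and a separate fit (adjusted p = 0.0466) called.

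Gsdmd, the gene of the pore former, rose in CAST/EiJ and PWK/PhJ. In CAST/EiJ it went from 9.77, 13.2 and 23.2 CPM to 19.5, 23.4 and 25.3 CPM, and all 8 WD mice lay above the CD median. The log2 change was 0.67 ± 0.13 (adjusted p = 4.19e-05), and it was 0.49, 0.63 and 0.71 in the 3 cohorts of this strain. In PWK/PhJ it went from 17.7, 19.5 and 23.3 CPM to 23.6, 28.3 and 28.9 CPM, without overlap, a change of 0.46 ± 0.12 (adjusted p = 0.00219). CAST/EiJ had the lowest Gsdmd of all strains on CD, PWK/PhJ the next lowest, and the other 5 strains had CD means of 28.1 to 36.8 CPM. C57BL/6J and 129S1/SvImJ, in which most members rose, had differences of -0.060 ± 0.11 and -0.039 ± 0.12, neither called. The lowest C57BL/6J mouse on CD, at 14.4 CPM against 28.4 CPM in the next, was the mouse that lay apart, and without it the difference in this strain was -0.20 (adjusted p = 0.102).

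Ripk3, the kinase of necroptosis, rose in PWK/PhJ, C57BL/6J and 129S1/SvImJ. In C57BL/6J it went from 0.826, 1.49 and 2.23 CPM to 1.51, 2.66 and 2.98 CPM, with 6 of 8 WD mice above every CD mouse, a log2 change of 0.71 ± 0.16 (adjusted p = 0.000345). 129S1/SvImJ went from 0.808, 1.28 and 1.58 CPM to 1.63, 1.84 and 2.701 CPM, without overlap, a change of 0.69 ± 0.20 (adjusted p = 0.00494). PWK/PhJ went from 0.760, 1.29 and 1.63 CPM to 1.29, 1.71 and 2.56 CPM, a change of 0.58 ± 0.20 (adjusted p = 0.0232). That call was lost without CD replicate 2 (adjusted p = 0.0929), CD replicate 5 (adjusted p = 0.0988) or WD replicate 7 (adjusted p = 0.0727). Over the 14 group means of log2 CPM the 3 genes most like Ripk3 were Ptprc, the common leukocyte antigen CD45 (Pearson r = 0.97), Themis2 (r = 0.97) and Arhgap30 (r = 0.97).

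Mlkl, the executor of necroptosis, was called in 4 strains, including A/J and DBA/2J, where no other member was called, and its log2 difference was positive in all 7. In A/J the CD mice had 3.50, 3.82, 3.96, 4.69 and 4.76 CPM, and the lowest, median and highest WD mouse had 5.99, 6.95 and 9.98 CPM. The A/J groups did not overlap, and the log2 change was 0.80 ± 0.19 (adjusted p = 0.0033). It was 0.71 (adjusted p = 0.0161) without the A/J mouse that lay apart. In DBA/2J it went from 5.92, 7.84 and 12.3 CPM to 10.4, 13.3 and 14.1 CPM, with 5 of 7 WD mice above every CD mouse, a change of 0.65 ± 0.14 (adjusted p = 0.000457). PWK/PhJ went from 2.56, 3.63 and 5.51 CPM to 4.65, 7.36 and 10.5 CPM, a change of 0.97 ± 0.18 (adjusted p = 9.51e-06). C57BL/6J had 4.43, 6.53 and 9.94 CPM on CD and 7.08, 9.10 and 9.77 CPM on WD, a change of 0.39 ± 0.13 (adjusted p = 0.0211) that edgeR (adjusted p = 0.0974) and DESeq2 (adjusted p = 0.078) did not call. That call was also lost in a separate fit (adjusted p = 0.0956) and without any one of CD replicates 3, 5, 7 and 8 (adjusted p = 0.0507 to 0.0639), and without the mouse that lay apart it was 0.43 (adjusted p = 0.0148).

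Mlkl was not called in the other 3 strains. Mice of 129S1/SvImJ went from 3.08, 3.82 and 4.54 CPM to 4.19, 5.35 and 6.61 CPM, and the difference was 0.46 ± 0.18 (adjusted p = 0.0501). Of the alternatives, 7 that changed the test, the filter, the scaling, the weights or the cohort term called it, among them edgeR (adjusted p = 0.0466) and DESeq2 (adjusted p = 0.0361). WSB/EiJ had 1.61, 2.16 and 3.02 CPM on CD and 2.37, 3.15 and 6.17 CPM on WD, with 5 of 6 WD mice above every CD mouse and a difference of 0.62 ± 0.24 (adjusted p = 0.0965). edgeR (adjusted p = 0.0192) and DESeq2 (adjusted p = 0.0118) called it. It was 0.43 (adjusted p = 0.332) without the WSB/EiJ mouse that lay apart. In CAST/EiJ all 8 WD mice lay above the CD median, with a difference of 0.44 ± 0.25 (adjusted p = 0.241). The test of a difference in the diet effect between strains gave an adjusted p = 0.201 for Mlkl, and none of the alternatives brought it below 0.05.

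Tnf, the cytokine that can start necroptosis, had the lowest median read number of the 10 genes. Its change was the largest of them in 129S1/SvImJ and C57BL/6J, whereas Casp4 changed more in PWK/PhJ. In 129S1/SvImJ Tnf went from 0, 0.0851 and 0.197 CPM on CD (0 to 8 reads per mouse) to 0.582, 1.03 and 1.98 CPM on WD (28 to 98 reads). The groups did not overlap, the means differed 12.0-fold, and the log2 change was 3.74 ± 0.55 (adjusted p = 1.25e-07). In C57BL/6J it went from 0.0590, 0.483 and 1.03 CPM to 0.716, 1.15 and 2.46 CPM, with 4 of 8 WD mice above every CD mouse and a change of 1.64 ± 0.35 (adjusted p = 0.000142). Without the C57BL/6J mouse that lay apart the change was 1.86 (adjusted p = 3.82e-05). In PWK/PhJ it went from 0.0422, 0.144 and 0.242 CPM to 0.236, 0.489 and 0.659 CPM, with 6 of 7 WD mice above every CD mouse and a change of 1.78 ± 0.55 (adjusted p = 0.00876).

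Tnf was also higher on WD in A/J and WSB/EiJ without passing the threshold. The A/J mice on CD had 0.0687, 0.174, 0.194, 0.231 and 0.289 CPM, the lowest, median and highest WD mouse had 0.195, 0.434 and 1.88 CPM, and the difference was 1.48 ± 0.56 (adjusted p = 0.0848). Without the A/J mouse that lay apart it was 1.10 (adjusted p = 0.267), whereas edgeR (adjusted p = 0.0159) and DESeq2 (adjusted p = 0.00837) called it with all mice. In WSB/EiJ the groups did not overlap, with 3 to 4 reads per mouse on CD and 7 to 19 on WD, and the difference was 1.55 ± 0.67 (adjusted p = 0.146). DESeq2 (adjusted p = 0.0261) and a separate fit for WSB/EiJ (adjusted p = 0.00507) called it. DBA/2J had 0.133, 0.233 and 0.456 CPM on CD and 0.0434, 0.217 and 0.470 CPM on WD, a difference of -0.034 ± 0.55.

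The diet effect differed between strains for 7 of the 10 members by limma's F test (threshold 0.05), where 37.5% of all genes tested were called. They were Casp4 (adjusted p = 8.95e-08), Nlrp3 (7.5e-05), Tnf (0.000478), Gsdmd (0.000532), Casp1 (0.00152), Il18 (0.00622) and Ripk3 (0.0177). Pycard missed the threshold (adjusted p = 0.0527), as did Il1b and Mlkl. Each of the 7 calls held under the 9 other settings that gave a value, or 8 for Tnf, and without any single mouse.

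One strain was then set against the mean of the other 6, which called 8 of the 70 combinations of member and strain (11.4%) against 6.75% of all gene and strain combinations tested. The Casp4 effect of PWK/PhJ exceeded that mean by 1.62 ± 0.22 (adjusted p = 2.52e-07) on the log2 scale, and that of CAST/EiJ differed from it by -0.70 ± 0.22 (adjusted p = 0.0393). In 129S1/SvImJ the effects on Tnf, 2.59 ± 0.60 (adjusted p = 0.00269), and Nlrp3, 1.15 ± 0.24 (adjusted p = 0.000814), were larger than the mean of the others. DBA/2J had smaller effects on Tnf, -1.81 ± 0.59 (adjusted p = 0.0465), and Casp1, -0.52 ± 0.17 (adjusted p = 0.046). The Gsdmd effect of CAST/EiJ exceeded that of the others by 0.56 ± 0.14 (adjusted p = 0.00459), and the Il18 effect of WSB/EiJ by 0.49 ± 0.13 (adjusted p = 0.0146). This count was 5 when every gene with at least 1 read was tested and 18 with sample quality weights.

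Of the 26 called combinations of member and strain, 23 higher and 3 lower on WD, all had the same sign in each cohort of their strain, as the labels number cohorts. Each strain had 2 or 3 cohorts with 1 to 5 mice per diet. The cohorts hold the same mice from which the calls came, so shared signs are not a separate test of the calls. The weakest within-cohort value was -0.0097, for Il18 in C57BL/6J. For Casp1 in C57BL/6J the cohorts gave 0.14 and 0.58, and for Tnf in 129S1/SvImJ they gave 2.27 and 3.92.

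Strains also differed within each diet. On CD, 109 of the 210 combinations of member and pair of strains (51.9%) were called, against 48.3% over all genes, and on WD 132 (62.9%) against 50.6%. Mlkl differed in 16 of 21 pairs on CD and 18 on WD. Its CD means ran from 8.35 ± 2.58 CPM (SD, n = 6) in DBA/2J to 1.53 ± 0.458 CPM (SD, n = 7) in CAST/EiJ, a log2 difference of 2.43 ± 0.23 (adjusted p = 5.53e-16). In the CD order DBA/2J, C57BL/6J, A/J, PWK/PhJ, 129S1/SvImJ, WSB/EiJ and CAST/EiJ, only C57BL/6J and A/J, and 129S1/SvImJ and WSB/EiJ, passed the test as neighbors.

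Pycard was lowest in WSB/EiJ on both diets, with 0.222 ± 0.05004 CPM (SD, n = 6) on CD against 1.13 ± 0.492 CPM (SD, n = 8) in C57BL/6J, a log2 difference of 2.23 ± 0.29 (adjusted p = 2.51e-10). It differed from its nearest neighbor in the order, 129S1/SvImJ, by 1.14 ± 0.32 (adjusted p = 0.00175). The other 6 strains followed each other without a called step between neighbors on CD. Casp1 on CD was highest in C57BL/6J, with 3.86 ± 0.810 CPM (SD, n = 8), and lowest in PWK/PhJ, with 1.20 ± 0.494 CPM (SD, n = 6), which lay below its neighbor 129S1/SvImJ by 0.94 ± 0.20 (adjusted p = 5.08e-05). Casp4 on CD had no called step between neighbors, and its ends, C57BL/6J and 129S1/SvImJ, differed by 1.37 ± 0.22 (adjusted p = 1.65e-07). On WD, PWK/PhJ exceeded its neighbor C57BL/6J for Casp4 by 0.54 ± 0.15 (adjusted p = 0.00116).

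Il18 on CD was highest in 129S1/SvImJ, with 17.5 ± 1.62 CPM (SD, n = 7), which exceeded its neighbor CAST/EiJ by 0.54 ± 0.10 (adjusted p = 4.01e-06), and lowest in WSB/EiJ, with 7.86 ± 0.778 CPM (SD, n = 6). On WD 129S1/SvImJ was still highest, and PWK/PhJ had the lowest mean, without a called step from its neighbor WSB/EiJ (adjusted p = 0.0996). Gsdmd on CD stepped down from A/J to PWK/PhJ by 0.48 ± 0.13 (adjusted p = 0.00212) and from PWK/PhJ to CAST/EiJ by 0.49 ± 0.13 (adjusted p = 0.00153), and on WD the step into PWK/PhJ was not called. Il1b was lowest in CAST/EiJ, by 1.67 ± 0.60 (adjusted p = 0.0165) against its neighbor A/J on CD, and the other 6 strains had no called step. Nlrp3 on CD fell between C57BL/6J and 129S1/SvImJ by 0.70 ± 0.22 (adjusted p = 0.00605). Ripk3 and Tnf had no called step between neighbors on CD. In the order of mean CPM, the ends differed by 0.91 ± 0.23 (adjusted p = 0.000435) for Ripk3 (DBA/2J and CAST/EiJ). For Tnf (C57BL/6J and WSB/EiJ) they differed by 2.10 ± 0.61 (adjusted p = 0.00271). In the log2 fit C57BL/6J exceeded CAST/EiJ for Tnf by more, 2.42 ± 0.60 (adjusted p = 0.000493), and 129S1/SvImJ by 2.26 ± 0.57 (adjusted p = 0.000576). All these levels rest on reads mapped to the C57BL/6J genome. The median share of reads that did not map was 12.5% in CAST/EiJ, 6.05% in WSB/EiJ and 5.48% in PWK/PhJ.

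Genes around the members were counted in 5 lists, beside which stand the shares of all genes called, 4.39% to 15.1% higher and 3.97% to 14.5% lower over the strains. Of 18 other inflammasome sensors and regulators tested, 11 rose in C57BL/6J, 11 in 129S1/SvImJ and 6 in PWK/PhJ, 3 each in A/J, WSB/EiJ and CAST/EiJ, and 0 in DBA/2J, with medians of 0.45, 0.66 and 0.48 on the log2 scale in the first 3. Txnip, whose protein binds thioredoxin and can activate NLRP3, fell in 6 of 7 strains, with a log2 change of -1.75 ± 0.29 (adjusted p = 4.48e-06) in WSB/EiJ. Serpinb1a, an inhibitor of neutrophil proteases, rose in 5 strains, with the largest change in 129S1/SvImJ, 1.99 ± 0.48 (adjusted p = 0.000945). Irgb10 was not found by that symbol, and Trim31 had too few reads to be tested.

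Of 9 pyroptosis and lysis effectors tested, 3 rose in C57BL/6J and 3 in 129S1/SvImJ, 2 in CAST/EiJ and at most 1 elsewhere. Ninj1, which ruptures the membrane of dying cells, rose in CAST/EiJ by 0.48 ± 0.066 (adjusted p = 5.28e-08) and in 2 more strains. Of 19 necroptosis regulators, 0 to 2 were called higher and 0 to 2 lower in each strain, with a median between -0.042 and 0.055. Ikbke, a kinase of the interferon pathway, rose in 3 strains, Xiap, an inhibitor of caspases, fell in 2 strains, and Zbp1, a sensor that engages RIPK3, rose in 129S1/SvImJ by 1.03 ± 0.38 (adjusted p = 0.0357).

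Of 17 ligands and receptors of the IL-1 family, 7 rose in C57BL/6J, 8 in 129S1/SvImJ and 5 in PWK/PhJ, and 4 fell in CAST/EiJ. Il1rn, the antagonist of the IL-1 receptor, rose in 129S1/SvImJ from a mean of 3.18 to 16.4 CPM, 2.38 ± 0.32 (adjusted p = 1.87e-08), and fell in CAST/EiJ from 9.19 to 2.94 CPM, -1.53 ± 0.34 (adjusted p = 0.000524). Il1f9, the gene of interleukin-36γ, rose in 6 strains at very low levels, by 3.98 ± 0.54 (adjusted p = 2.18e-08) in 129S1/SvImJ. Of 26 genes of the TNF family, its receptors and its response, 9 rose in PWK/PhJ, 12 in C57BL/6J, 11 in 129S1/SvImJ, 4 in A/J, 4 in WSB/EiJ, 3 in DBA/2J and 2 in CAST/EiJ. Tnfaip3, an inhibitor of NF-kB that TNF induces, rose in 6 strains, with 1.60 ± 0.19 (adjusted p = 4.36e-10) in 129S1/SvImJ and 1.47 ± 0.26 (adjusted p = 2.07e-05) in WSB/EiJ, where no member was called. Traf1 rose in 4 strains, by 2.27 ± 0.28 (adjusted p = 1.36e-09) in 129S1/SvImJ, and Tnfrsf10b, a death receptor, in DBA/2J by 1.78 ± 0.41 (adjusted p = 0.000788) and in PWK/PhJ.

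**Figure D4:**
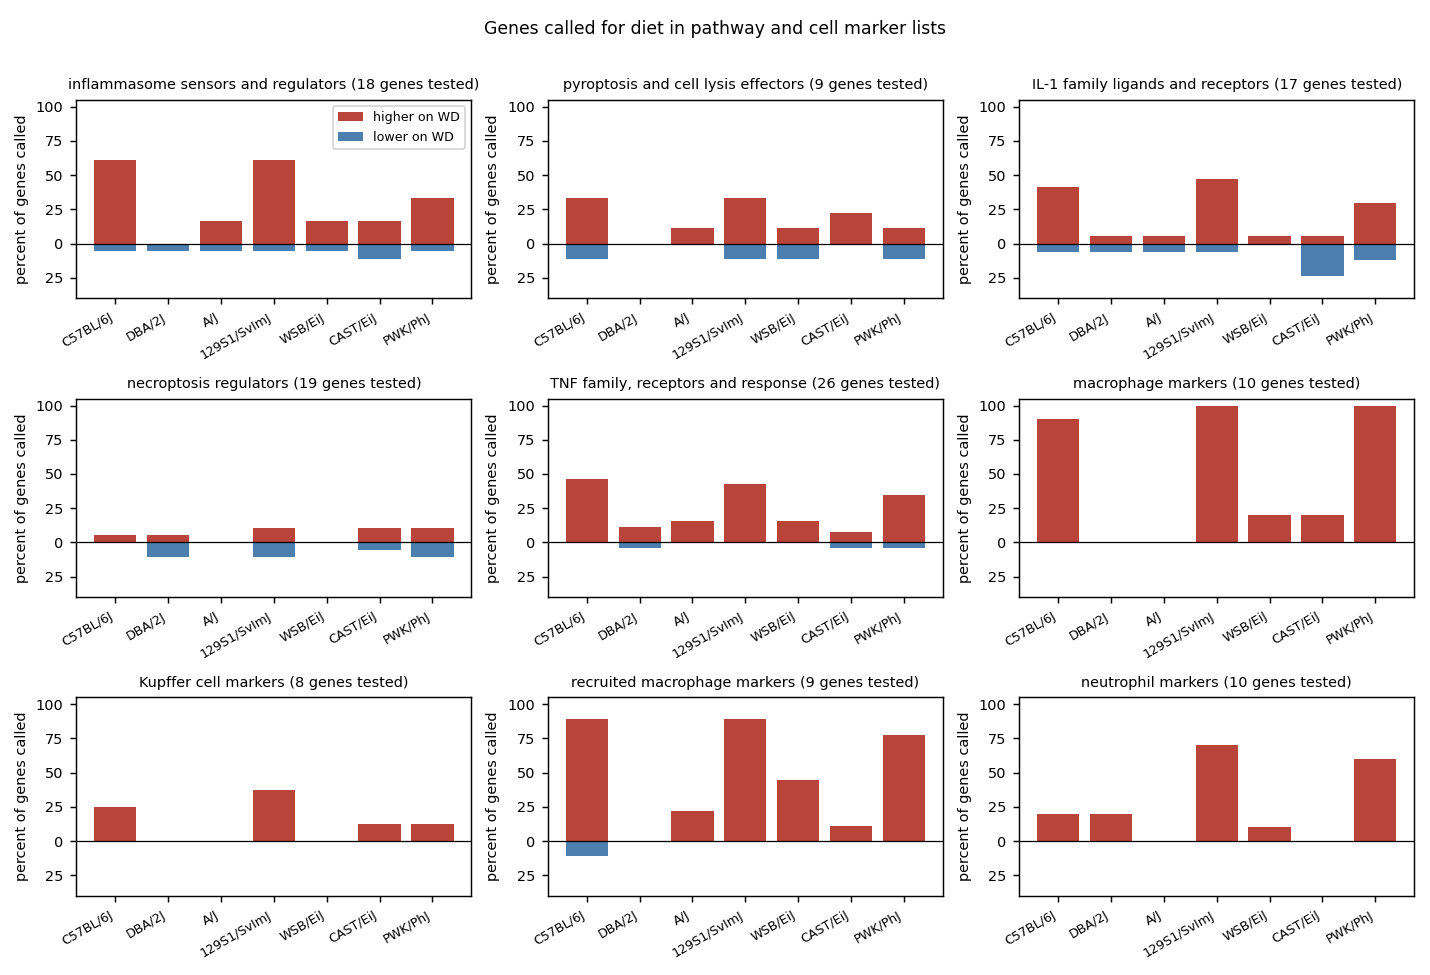
Percentage of tested genes called higher (red, upward) or lower (blue, downward) on WD in each strain for the 5 pathway lists and 4 lists of leukocyte markers (threshold 0.05, adjusted over the whole table). Macrophage markers reach 90% or more in PWK/PhJ, 129S1/SvImJ and C57BL/6J and 0 in DBA/2J and A/J.

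The genes most like each member over the 14 group means of log2 CPM, described by Pearson r, were leukocyte genes for several of them. For Tnf they were Arhgap25 (r = 0.98), Itgb2 (r = 0.97) and Plek (r = 0.97), and for Nlrp3 they were Gpsm3 (r = 0.97), Rac2 (r = 0.96) and Apbb1ip (r = 0.96). For Casp4 they were Aebp1 (r = 0.94), Pcolce (r = 0.94) and Adamts2 (r = 0.93), which encode proteins of the extracellular matrix or its processing. Mlkl went with Arl8a (r = 0.95), Scamp5 (r = 0.94) and Slfn2 (r = 0.93), and Gsdmd with Necab1 (r = 0.92), Steap3 (r = 0.91) and Rpusd3 (r = 0.90). Casp1 went with Dock11 (r = 0.96), B430306N03Rik (r = 0.96) and Hip1 (r = 0.95), Pycard with Cst3 (r = 0.93), March1 (r = 0.93) and Btnl9 (r = 0.93), and Il1b with Rhoa (r = 0.93), Prelp (r = 0.92) and Steap2 (r = 0.91). Il18 had the weakest likeness, with Zfp53 (r = 0.84), Usp46 (r = 0.83) and Herc3 (r = 0.82). Over the deviations of the 93 mice from their group means the closest gene was Csf1r, the receptor of macrophage growth factor, for Nlrp3 (r = 0.72), Gbp8 for Casp1 (r = 0.78), Nmi for Gsdmd (r = 0.79), Themis2 for Ripk3 (r = 0.78), Ly6e for Mlkl (r = 0.69), Psme1 for Il18 (r = 0.66), Vim for Pycard (r = 0.60), Cd83 for Il1b (r = 0.55) and Tlr2 for Tnf (r = 0.55).

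The mouse of A/J on WD that lay apart had the highest value of its group for all 10 members. Its macrophage markers summed to 905 CPM, against 353 to 507 CPM in the other 5 mice, and its neutrophil markers to 37.3 CPM, against 4.25 to 7.19 CPM. The C57BL/6J mouse on CD had markers of recruited macrophages at 666 CPM, against 69.5 to 241 CPM in the other 7 mice, and stellate cell markers at 999 CPM, against 390.4 to 556 CPM. Its cholangiocyte markers were also highest, at 102 CPM against 33.6 to 50.4 CPM. Lowest of its group were its Kupffer cell markers, at 164 CPM against 225 to 450 CPM, and its endothelial markers, at 335 CPM against 454 to 514 CPM. The WSB/EiJ mouse on WD, highest of its group for 8 members, had macrophage markers at 710 CPM, against 273 to 438 CPM in the other 5. Without the A/J mouse the A/J log2 difference of Casp1 went from 0.10 ± 0.16 to -0.045 (adjusted p = 0.926) and that of Ripk3 from 0.017 ± 0.21 to -0.19 (adjusted p = 0.697), both with a turn of sign. Nlrp3 went from 0.42 ± 0.23 to 0.27 (adjusted p = 0.576), Pycard from 0.19 ± 0.24 to 0.0056 (adjusted p = 0.994) and Casp4 from 0.34 ± 0.24 to 0.20 (adjusted p = 0.724). Il1b went from -0.30 ± 0.51 to -0.56 (adjusted p = 0.624), Il18 from -0.082 ± 0.12 to -0.14 (adjusted p = 0.571) and Gsdmd from 0.17 ± 0.13 to 0.10 (adjusted p = 0.744).

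Without the C57BL/6J mouse no call in that strain ended. Its log2 changes were then 0.94 (adjusted p = 1.76e-05) for Nlrp3, 0.45 (adjusted p = 0.003) for Casp1, 0.65 (adjusted p = 0.00132) for Casp4 and 0.70 (adjusted p = 0.000673) for Ripk3, and the Il1b difference was 0.46 (adjusted p = 0.255). Without the WSB/EiJ mouse no member was called in that strain either. Casp1 there went from 0.024 ± 0.19 to -0.068 (adjusted p = 0.91), Casp4 from 0.18 ± 0.23 to 0.045 (adjusted p = 0.96), Nlrp3 from 0.34 ± 0.28 to 0.14 (adjusted p = 0.867) and Ripk3 from 0.21 ± 0.25 to 0.069 (adjusted p = 0.937). Il1b went from -0.37 ± 0.41 to -0.47 (adjusted p = 0.614), Il18 from 0.31 ± 0.13 to 0.29 (adjusted p = 0.183), Gsdmd from 0.22 ± 0.12 to 0.15 (adjusted p = 0.563), Tnf from 1.55 ± 0.67 to 1.39 (adjusted p = 0.246), and Pycard from -0.083 ± 0.37 to -0.086 (adjusted p = 0.951).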

How the data were processed

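Liver mRNA was sequenced from 93 mice in 14 groups of strain and diet. The authors made libraries with the SMARTER kit, sequenced them on a BGISEQ-500, aligned untrimmed reads to the C57BL/6J genome (GRCm38, mm10) with STAR (2.7.1a per the submitters' processing notes) and deposited read counts per Ensembl gene. The annotation release and strand setting are not given in the sources used here. The 4 summary lines of STAR were removed, 0 sample columns were left unused, and 53360 of 53465 genes were matched in GENCODE M21.

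Counts were TMM-normalized (edgeR 4.0.16), genes were kept by filterByExpr with a minimum count of 10 (19110 genes), and all groups were fitted together by limma-voom (limma 3.58.1, R 4.3.3), the method the study names. p-values were two-sided and Benjamini-Hochberg adjusted within a strain for diet, over the 7 contrasts for 1 strain against the others, and over the 21 pairs of strains. Errors of log2 changes are standard errors. The test was also run on simulated data, and the outcome is not reported here. In those data strains had equal levels, and changes were added only in PWK/PhJ on WD, in genes above a minimum mean level. Alternatives were edgeR's quasi-likelihood test, DESeq2 1.42.0, other scaling, filters, weights and covariates, separate fits, and leaving out each mouse. A fit without the 3 mice far from their group was chosen after seeing the data. All 10 members were named. From each pathway list the 2 genes called in most strains and the 1 with the largest change were named, except 1 gene that is not reported here, and per member the 3 genes most alike. The members and lists were chosen with earlier results of these data known. Promoters came from RefSeq (GRCm38.p6).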

Additional observations from a re-analysis of the deposited data

Results flagged for a closer look

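In 140 groups of mice, 1 for each member, strain and diet, 20 had a mouse whose gap to the nearest other exceeded Dixon's 95% critical value. About 1 in 20 groups passes that limit by chance. Replicate 3 of A/J on WD was far above its group for Casp1 (5.64 CPM, next 3.63), Casp4 (3.84, next 2.39), Il1b (4.82, next 2.18), Ripk3 (3.34, next 1.701) and Tnf (1.88, next 0.788). Replicate 2 of C57BL/6J on CD was high for Pycard (2.23 CPM, next 1.32) and low for Gsdmd (14.4, next 28.4). Replicate 4 of WSB/EiJ on WD was high for Casp4 (3.89 CPM, next 2.58) and Mlkl (6.17, next 3.24).

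The remaining mice lay apart for 1 member each. On WD, Nlrp3 was low in replicate 1 of C57BL/6J (1.503 CPM), Casp4 was high in replicate 3 of C57BL/6J (6.78 CPM), Il1b was high in replicate 3 of DBA/2J (6.99 CPM, next 2.41), and Il18 was high in replicate 1 of 129S1/SvImJ (16.2 CPM). Gsdmd was low in replicate 6 of PWK/PhJ on WD (23.6 CPM, next 28.2), and Ripk3 was high on WD in replicate 4 of 129S1/SvImJ (2.701 CPM) and replicate 7 of PWK/PhJ (2.56 CPM). On CD, Nlrp3 was low in replicate 5 of PWK/PhJ (0.211 CPM), Casp4 was high in replicate 4 of CAST/EiJ (3.13 CPM), and Tnf was high in replicate 1 of WSB/EiJ (0.104 CPM) and replicate 1 of CAST/EiJ (0.441 CPM).

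The WD effect differed between the 7 strains, by limma's F test, for Nlrp3 (adjusted p = 7.5e-05), Casp1 (adjusted p = 0.00152), Casp4 (adjusted p = 8.95e-08), Il18 (adjusted p = 0.00622), Gsdmd (adjusted p = 0.000532), Ripk3 (adjusted p = 0.0177) and Tnf (adjusted p = 0.000478).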

How the results depend on the processing

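No paired analysis was possible because the replicate numbers were given in accession order and pair no mice. The 26 called combinations of member and strain gave 616 values under the alternatives, of which 587 kept their direction and side of the threshold, 29 lost the call and 0 turned direction. Of 286 counts of called members or combinations, 11 moved by over 1.5 times. C57BL/6J had 4 called members in a separate fit (8 in the joint fit). A/J had 2 with edgeR and 2 with DESeq2, and 1 to 2 without single mice, with 2 without WD replicate 4. WSB/EiJ had 1 with sample quality weights, 2 in a separate fit, 1 with edgeR and 2 with DESeq2. DBA/2J had 1 to 2 without single mice, with 2 without CD replicate 1. Setting 1 strain against the average of the remaining 6, 5 combinations were called when genes with at least 1 count were tested and 18 with sample quality weights, against 8. The F test called Il1b under 6 of 8 settings and Pycard under 4 of 8. Some settings gave no value for some results, such as strain pairs with cohort as a covariate. The cause of these shifts was not tested. Depth limits Tnf and, in WSB/EiJ, Pycard most.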
